A study of Mus musculus with 7 samples.

Results

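The Toll-like receptor family was taken from a list of 10 genes, Tlr1 to Tlr9 and Tlr13. A gene entered where a probe set of the array carried its symbol and no other, and 9 of the 10 did so, among 19938 genes measured with a single symbol. Each of the 9 had 1 probe set, and Tlr5 was not analysed here. The arrays measured RNA of macrophages sorted by flow cytometry from the lamina propria of the colon of C57BL/6 mice, all 6 weeks old. Of the 7 arrays 5 carry the sort label resident. Of these, 3 are from control mice with 1 Cx3cr1 allele replaced by GFP (Cx3cr1gfp/+, labelled wild type) and 2 from CX3CR1cre:IL10Raflox/flox mice, called Il10ra_mKO below, in which Cre made from the Cx3cr1 locus deletes the IL-10 receptor chain Il10ra. The other 2 carry the sort label CX3CR1hi. Of these, 1 is from control Cx3cr1gfp/+ mice and 1 from Il10-deficient mice with the same GFP allele (IL10-/- CX3CR1gfp/+), called Il10_KO. The comparisons ask how colonic macrophages that cannot sense IL-10, or that live without it, differ from control macrophages. Controls of Il10ra_mKO carried GFP and not Cre, so the allele and the deletion cannot be told apart, and Cre from this locus can act in every cell type that uses Cx3cr1.

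Toll-like receptors are membrane proteins that bind conserved molecules of microbes and pass the signal on through a domain, TIR, inside the cell. Tlr1, Tlr2, Tlr4, Tlr5 and Tlr6 act mainly at the cell surface and bind bacterial lipoproteins, lipopolysaccharide or flagellin. Tlr3, Tlr7, Tlr8, Tlr9 and Tlr13 act in endosomes and bind nucleic acids. Gut macrophages live beside dense bacteria, and IL-10 is known as a cytokine that damps their inflammatory response to such ligands.

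The array values are log2 values, on which a difference of 1 is a doubling. In the 5 resident arrays 2 or more shared exactly the same deposited value for 60.4% of genes, while a CX3CR1hi and a resident array shared one for 0.01% of genes (2 genes) and both CX3CR1hi arrays for 0. The upper quartile of all values lay at 8.26 and 8.30 for the sort label CX3CR1hi, and from 7.93 to 8.01 for the label resident. Mutants were therefore compared with controls within a sort label. Il10ra, the deleted gene, was at 10.56, 10.76 and 11.12 in the resident controls and at 8.05 and 7.04 in Il10ra_mKO. Macrophage markers were bright in all arrays, with a mean over 12 genes of 11.18 to 11.62. Epithelial markers were bright too, and their mean over 11 genes was 10.89 to 11.29 in the resident controls, 11.07 and 9.26 in Il10ra_mKO, 11.66 in the CX3CR1hi control and 11.15 in Il10_KO. Nothing in the labels tells if a group's arrays stem from different mice, and the p-values therefore rest on array-to-array spread that may be technical.

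Promoter sequence was available for 7 of the 9 receptors, in 9 windows of the 250 bases before a transcript start (RefSeq, GRCm38.p6). Windows are shown for Tlr2, the receptor with the largest change between genotypes, and for Tlr3, the other receptor whose window matched the NF-kB consensus. For Tlr6 only the window is shown that matched the core of the interferon-stimulated response element, GAAA repeated after any 2 bases. The other Tlr6 window held no match to any motif searched. Both strands were searched, capitals mark the matches, and overlapping matches run together. The sequences read 5′ to 3′ on the gene's strand.
Tlr2, chr3:83841609-83841858, minus strand: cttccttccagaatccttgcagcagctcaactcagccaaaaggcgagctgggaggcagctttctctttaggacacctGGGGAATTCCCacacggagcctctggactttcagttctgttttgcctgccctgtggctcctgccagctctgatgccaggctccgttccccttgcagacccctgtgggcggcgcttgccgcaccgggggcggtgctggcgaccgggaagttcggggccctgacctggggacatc
Tlr3, chr8:45410381-45410630, minus strand: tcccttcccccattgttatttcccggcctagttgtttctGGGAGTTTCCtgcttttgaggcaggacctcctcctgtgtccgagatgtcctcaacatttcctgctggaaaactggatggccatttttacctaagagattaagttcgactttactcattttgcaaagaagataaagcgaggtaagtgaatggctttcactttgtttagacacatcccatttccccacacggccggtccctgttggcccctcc
Tlr6, chr5:64959167-64959416, minus strand: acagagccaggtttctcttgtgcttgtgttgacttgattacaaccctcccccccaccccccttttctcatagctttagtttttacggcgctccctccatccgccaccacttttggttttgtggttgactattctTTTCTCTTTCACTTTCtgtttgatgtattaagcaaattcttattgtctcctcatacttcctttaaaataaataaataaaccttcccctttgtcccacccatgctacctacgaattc
The NF-kB consensus began 173 bases before the start of Tlr2 and 211 bases before that of Tlr3. It was found in 2 of the 9 windows and in 3.9% of all 32851 promoter windows of this length. In the Tlr6 window shown, a pair of overlapping matches to the interferon response core, on the opposite strand, began 116 and 110 bases before the start. That motif was found in 1 of the 9 windows and in 2.98% of all windows. A PU.1-type motif, GAGGAAGT, lay 23 bases before 1 of the starts of Tlr1 (2.44% of all windows). The motif TTCNNNGAA, bound by STAT factors, was found in the other Tlr1 window and in that of Tlr8 (7.02% of all windows). The windows of Tlr9 and Tlr13 and the other window of Tlr6 held none of these letters, and a match describes the sequence only.

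Among the surface receptors Tlr2 differed most between Il10ra_mKO and the resident controls. Tlr2, which senses bacterial lipoproteins together with Tlr1 or Tlr6, was at 9.50, 8.77 and 9.08 in the 3 control arrays, against 10.14 and 10.13 in Il10ra_mKO. Both mutant arrays lay above every control, by at least 0.63, and nearly at the same level, while the controls were spread over 0.37 (SD, n = 3). The log2 change was 1.02 ± 0.25 (SE of the limma fit, 2 against 3 arrays), a 2.03-fold difference. With the sign counted, so that every lowered gene ranks below, it was above the change of 99.1% of all genes. Yet it did not pass over all genes tested (limma, adjusted p = 0.455, and 0.053 to 0.783 over 15 alternatives). It was the single receptor of 9 at least 2-fold higher, where 0.953% of all genes were, and 0 of 9 were at least 2-fold lower, where 1.43% were.

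Tlr1, a partner of Tlr2 for triacylated lipoproteins, was at 10.69, 10.80 and 10.96 in the controls and at 11.04 and 11.29 in Il10ra_mKO. The groups did not overlap, but the gap between the nearest arrays was 0.07, and the change of 0.35 ± 0.13 (SE) did not pass (limma, adjusted p = 0.660). Tlr6, the partner for diacylated lipoproteins and the next protein-coding gene beside Tlr1 on chromosome 5, stood at 7.47, 7.65 and 7.78 in the controls. In Il10ra_mKO it was at 7.78 and 8.20, so that array 1 equalled the highest control and only array 2 stood above (0.35 ± 0.17, adjusted p = 0.678). Tlr4, the lipopolysaccharide receptor, was at 9.07, 8.82 and 9.09 against 9.07 and 9.54, with array 1 inside the control range (0.31 ± 0.19, adjusted p = 0.678). The deposited Tlr4 value of Il10ra_mKO array 1 was identical to that of control array 1, and its Tlr6 value to that of control array 3.

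**Figure D1:**
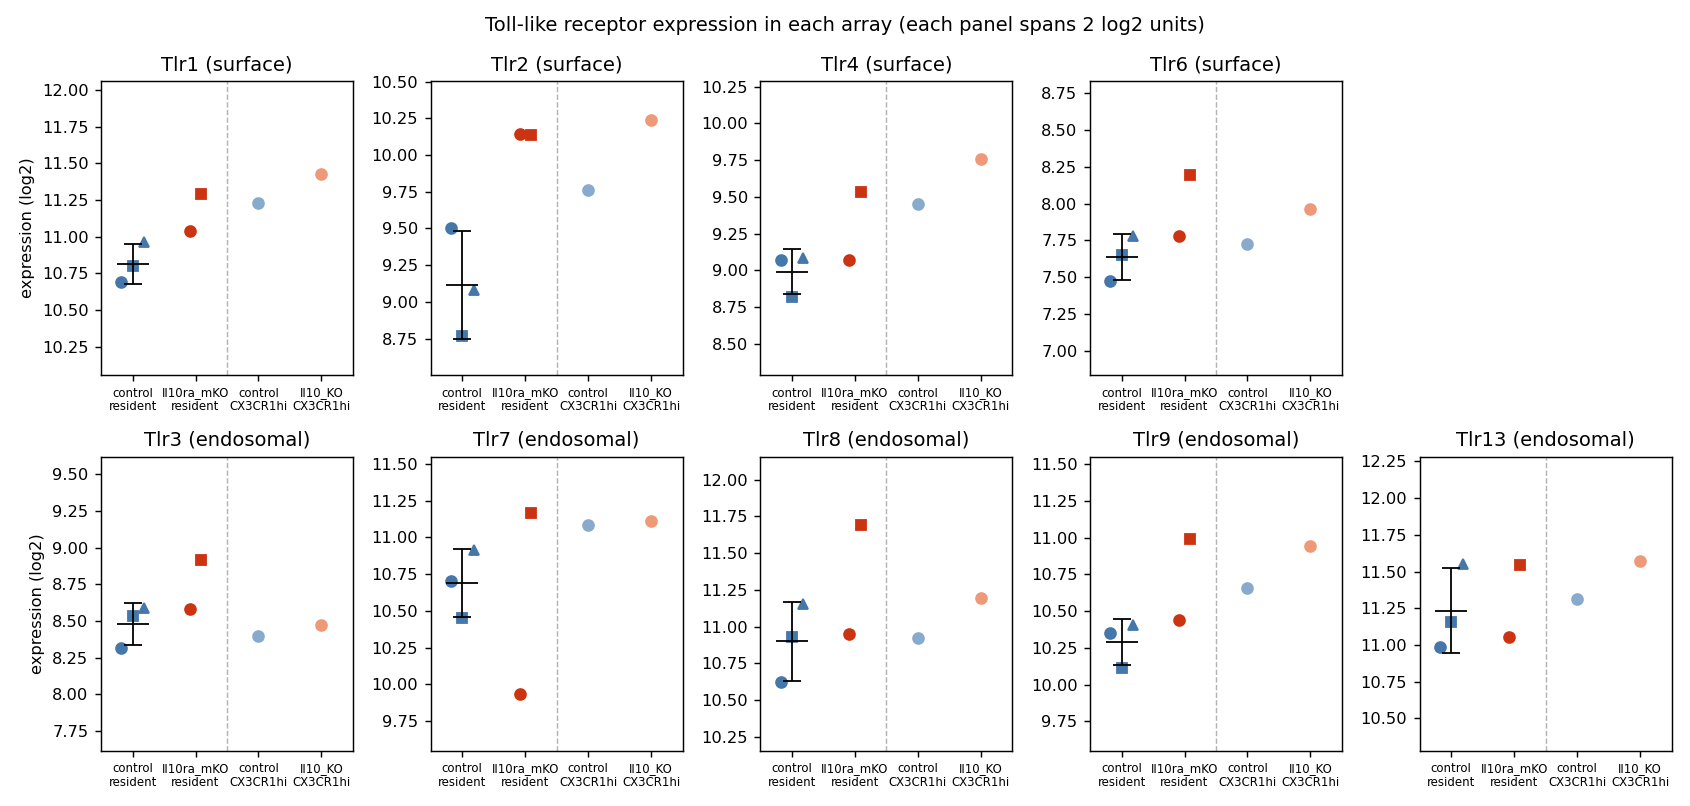
Expression (log2, vertical axis) of 4 surface and 5 endosomal Toll-like receptors in each of the 7 arrays, by group (horizontal axis), with the mean ± SD of the 3 resident controls as a black bar and circle, square and triangle for arrays 1, 2 and 3. Tlr2 has both Il10ra_mKO arrays at 10.14 and 10.13, above all controls, while Tlr7 has them at 9.93 and 11.16, below and above all controls. The dashed line separates the sort labels, whose levels are not directly comparable.

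Among the endosomal receptors the 2 Il10ra_mKO arrays differed from each other by 0.34 (Tlr3) to 1.23 (Tlr7), and among the surface receptors by -0.01 (Tlr2) to 0.46 (Tlr4). Array 2 was above array 1 for 8 of the 9 receptors, against 40% of all genes, where a value shared by both arrays counts as not above. The share among bright genes alone was not counted. The median of array 2 minus array 1 was 0 over all genes. It was 0.05 over genes above log2 5.86 in at least 2 arrays, as all 9 receptors were. Tlr7, a sensor of single-stranded RNA, was at 10.70, 10.45 and 10.91 in the controls and at 9.93 and 11.16 in Il10ra_mKO. Array 1 lay below every control and array 2 above every control, and the change of -0.14 ± 0.43 (SE, adjusted p = 0.934) had no settled direction. Without Il10ra_mKO array 1 it was 0.47, and without array 2 it was -0.76. Tlr8, its neighbour on chromosome X and also a single-stranded RNA sensor, had controls at 10.62, 10.93 and 11.16 and Il10ra_mKO arrays at 10.95 and 11.69. Array 1 lay within the controls and array 2 above them (0.42 ± 0.30, adjusted p = 0.681).

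Tlr9, the receptor for unmethylated CpG DNA, was at 10.35, 10.11 and 10.41 in the controls and at 10.44 and 10.99 in Il10ra_mKO. It was the single endosomal receptor whose groups did not overlap, with a gap of 0.03, and its change was 0.42 ± 0.21 (adjusted p = 0.678). Tlr3, which binds double-stranded RNA, was at 8.32, 8.54 and 8.59 against 8.58 and 8.92 (0.27 ± 0.15, adjusted p = 0.678), with array 1 just under the highest control. Tlr13, a sensor of bacterial ribosomal RNA, was at 10.99, 11.16 and 11.55 against 11.05 and 11.55. Its groups covered the same range and the change was 0.07 ± 0.25 (adjusted p = 0.955), turning to -0.06 without control array 1 and to -0.18 without Il10ra_mKO array 2.

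By limma 0 of the 9 receptors passed over all genes tested, where 0.00502% of genes did (1 gene). At an unadjusted p under 0.05 there was 1 of 9, Tlr2, against 7.92% of all genes. In sign, 8 of the 9 were higher in Il10ra_mKO, where 48.5% of all genes were, and 55.7% of the 10558 genes above a brightness cut of log2 5.86 in at least 2 arrays, which all 9 receptors passed. Both Il10ra_mKO arrays exceeded the 3 controls for 3 of the 9 receptors, against 8.92% of all genes and 14.6% of the bright ones.

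The change in each run of neighbouring sample numbers tells the 2 mutant arrays apart. Il10ra_mKO array 1 (number 54) stands next to control arrays 1 and 2 (55 and 56), and Il10ra_mKO array 2 (67) next to control array 3 (68). The labels do not say that such a run was handled together. Tlr2 was 1.01 higher in the first run and 1.05 in the second, and Tlr1 was 0.29 and 0.33 higher. Tlr4 differed by 0.13 and 0.45, Tlr6 by 0.22 and 0.41, Tlr3 by 0.15 and 0.33, Tlr8 by 0.17 and 0.54 and Tlr9 by 0.21 and 0.58. Tlr7 turned sign, with -0.64 in the first run and 0.25 in the second, and Tlr13 was level in both, at -0.02 and -0.004. All 4 surface receptors and 3 of the 5 endosomal ones were thus higher in both runs, 7 of 9, against 25.5% of all genes and 34.4% of the bright ones.

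**Figure D2:**
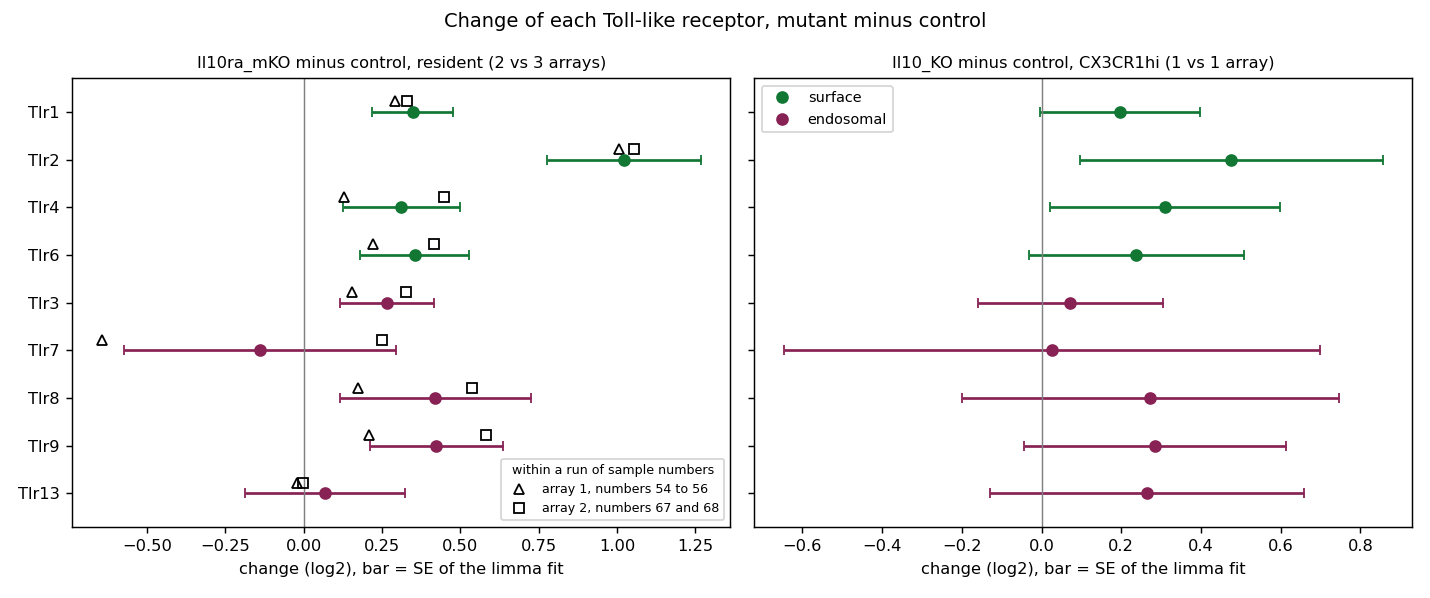
Log2 change of each receptor (horizontal axis), mutant minus control, for Il10ra_mKO in the resident arrays (left) and Il10_KO in the CX3CR1hi arrays (right), with bars for the SE of the limma fit; the SE on the right is borrowed from the resident arrays. Open triangles and squares give the change within each run of sample numbers, which is 1.01 and 1.05 for Tlr2 and -0.64 and 0.25 for Tlr7.

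Set against the mean of the 3 controls gene by gene, the 4 surface receptors were on average 0.37 higher in Il10ra_mKO array 1 and 0.65 higher in array 2. The 5 endosomal receptors averaged -0.13 in array 1 and 0.54 in array 2. The single control arrays deviated by -0.13 to 0.09 for the surface and by -0.12 to 0.20 for the endosomal receptors. The surface mean was thus above every control in both mutant arrays, and the endosomal mean only in array 2. Surface exceeded endosomal receptors by 0.50 in array 1 and by 0.11 in array 2, and in the controls this gap ran from -0.12 to 0.17. The gap of array 1 rested on 2 genes: without Tlr2 the surface mean was 0.15 there, and without Tlr7 the endosomal mean was 0.03. The control arrays ran from -0.07 to 0.13 without Tlr2 and from -0.16 to 0.20 without Tlr7. Without Tlr2 the surface mean of array 1 was thus only just above the highest control. In medians over the receptors, the Il10ra_mKO change was 0.35 for surface and 0.27 for endosomal receptors, beside 0 for all genes and 0.02 for the bright genes. Without Il10ra_mKO array 1 these medians were 0.55 and 0.47, and without array 2 they were 0.18 and 0.0475. No test was made of a score over the receptors.

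**Figure D3:**
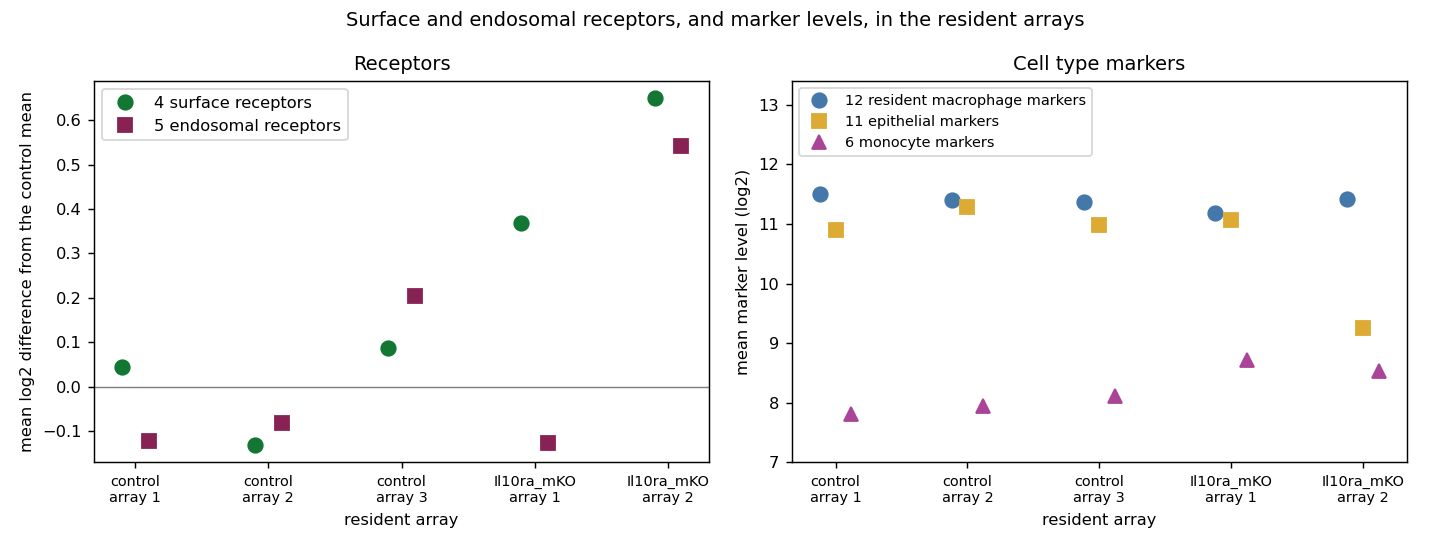
Left, mean log2 difference from the control mean (vertical axis) of 4 surface and 5 endosomal receptors in each resident array (horizontal axis); right, mean log2 level of resident macrophage, epithelial and monocyte markers in the same arrays. Endosomal receptors are at -0.13 in Il10ra_mKO array 1 and 0.54 in array 2, and epithelial markers are at 11.07 and 9.26 in these arrays.

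Il10ra_mKO array 2 held the highest value of the 5 resident arrays for 7 of the 9 receptors, against 22.3% of all genes and 35% of the bright ones. This array also stood apart in its cell type markers. Its epithelial mean of 9.26 was the lowest, and the keratin Krt8, the brightest of the 11 epithelial markers, was at 11.50 against 12.77 to 13.08 in the controls and 12.88 in Il10ra_mKO array 1. Macrophage markers were at 11.36 to 11.50 in the controls, 11.18 in Il10ra_mKO array 1 and 11.42 in array 2. These means join genes that differed in opposite directions. Of the 12 macrophage markers 6 were higher and 6 lower in Il10ra_mKO. Both mutant arrays were above every control for 3 of them (8.92% of all genes) and below every control for 4 (8.5% of all genes). Monocyte markers, 6 genes, averaged 7.81 to 8.12 in the controls and 8.73 and 8.53 in Il10ra_mKO, with 4 higher and 2 lower (median change 0.22, mean 0.66). One of them, F10, the gene of coagulation factor X, was at 5.85, 5.65 and 6.17 in the controls and at 9.18 and 8.84 in Il10ra_mKO. Without F10, which was singled out after its values were seen, the mean of the other 5 was 8.21, 8.41 and 8.51 against 8.63 and 8.46, and the groups overlapped. Their part in the receptor values was not tested. In sorted bulk RNA, a change in the number of cells of a type and a change in RNA per cell cannot be told apart.

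Some receptors are prominent in other immune cells, and markers of these were read beside them. Of 7 markers of plasmacytoid dendritic cells 3 were higher and 4 lower in Il10ra_mKO, with a median change of 0. Siglech, a marker of plasmacytoid dendritic cells, which use Tlr7 and Tlr9, was at 7.22, 6.80 and 7.14 in the controls and at 5.43 and 5.45 in Il10ra_mKO, low in both mutant arrays, and the mean of the 7 was 6.56 to 6.66 against 6.39 and 6.66. Of 9 markers of conventional dendritic cells 7 were higher in Il10ra_mKO, where 48.5% of all genes were. Both arrays were above every control for 5 of the 9, against 8.92% of all genes and 14.6% of the bright ones. Dpp4 and Cd209a were below every control in both arrays, as 8.5% of all genes were. Clec9a and Xcr1 mark the dendritic cells in which Tlr3 is abundant. Clec9a was at 6.34, 5.65 and 6.15 in the controls and at 8.58 and 9.32 in Il10ra_mKO, and Xcr1 at 5.50 to 5.84 against 6.5 and 6.42. Cd209a, a lectin of other dendritic cells, was at 8.63, 8.83 and 9.65 in the controls and at 6.47 and 7.16 in Il10ra_mKO. Ccr7, a further member of the list, was at 8.07, 6.64 and 7.60 in the controls and at 9.57 and 9.92 in Il10ra_mKO. In the CX3CR1hi pair 5 of the 9 were higher and 4 lower in Il10_KO (median 0.02). At least 2-fold different were 3 of the 9 (1.92% of all genes): Clec9a at 8.44 against 5.8, Ccr7 at 8.44 against 6.38 and Cd209a at 5.69 against 8.12. The genes named from this list were picked after their values were seen. The mean of the 9 was 6.26 to 6.51 in the controls and 6.74 and 7.05 in Il10ra_mKO. Neutrophils carry Tlr2 as well, and the mean of 10 neutrophil markers was 5.65 to 5.71 against 6.33 and 5.91. Of the 10, 9 were higher in Il10ra_mKO (48.5% of all genes), with a median change of 0.34. Both arrays were above every control for 6 of them (8.92% of all genes), and 2, Csf3r and Ly6g, passed the brightness cut. Ly6g was at 6.95, 7.75 and 8.17 in the controls and at 9.70 and 8.10 in Il10ra_mKO. S100a8 and S100a9, abundant in neutrophils, were at 4.96 to 5.44 in the controls and at 5.28 to 5.97 in Il10ra_mKO, above every control in both arrays. Ly6g, S100a8 and S100a9 were also picked after their values were seen. B and plasma cell markers, 8 genes, averaged 7.62 to 7.79 against 7.97 and 8.41. Of the 8, 5 were higher (48.5% of all genes) and 3 lower in Il10ra_mKO. Ms4a1 was at 6.19, 5.79 and 5.70 in the controls and at 6.72 and 8.16 in Il10ra_mKO, and Cd79a at 5.31 to 5.67 against 6.09 and 7.27. Jchain was below every control in both arrays. Ms4a1 and Cd79a were picked after their values were seen. The part of these cells in the receptor values was not tested.

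In the CX3CR1hi pair all 9 receptors were higher in Il10_KO than in its control, where 56.3% of all genes and 60.8% of the bright ones were. With array medians aligned or quantiles equalised Tlr7 turned to -0.012 or -0.037. Tlr2 again differed most, at 10.24 against 9.76 (0.48), followed by Tlr4 at 9.76 against 9.45 (0.31). Tlr9 was at 10.95 against 10.66 (0.29), Tlr8 at 11.19 against 10.92 (0.27), Tlr13 at 11.58 against 11.31 (0.26) and Tlr6 at 7.96 against 7.73 (0.24). Tlr1 was at 11.43 against 11.23 (0.20), Tlr3 at 8.47 against 8.40 (0.07) and Tlr7 at 11.11 against 11.08 (0.03). Of the 9 receptors 0 reached a 2-fold difference, which 1.92% of all genes did (0.692% higher and 1.22% lower). With 1 array a group this pair has no replicates of its own. A limma fit that borrows the spread of the resident arrays, and so does not measure that of this pair, called 0 of the 9 over all genes tested (7.9% of all genes, or 1576, and 2 to 2788 genes over the alternatives) and 0 at an unadjusted p under 0.05 (22% of all genes). The epithelial mean was lower in Il10_KO as well (11.15 against 11.66), and its part was not tested.

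Surface receptors had a median change of 0.27 and endosomal receptors of 0.26 in this pair, beside 0.03 for all genes and 0.07 for the bright genes. For each receptor the Il10_KO effect was subtracted from the Il10ra_mKO effect, and 0 of 9 such differences passed by limma, against 4.7% of all genes (937, and 0 to 2200 over the alternatives), with 0 at an unadjusted p under 0.05 (15.8% of all genes). It was largest for Tlr2, whose change was 0.55 ± 0.45 (SE) larger in Il10ra_mKO (adjusted p = 0.767). For Tlr4 both changes were 0.31.

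Across sort labels the control levels are set side by side. Tlr1 was at 11.23 in the CX3CR1hi control and at 10.82 ± 0.14 (SD, n = 3) in the resident ones, Tlr2 at 9.76 and 9.12 ± 0.37, and Tlr4 at 9.45 and 8.99 ± 0.15. Tlr3 was at 8.40 and 8.48 ± 0.14, and Tlr8 at 10.92 and 10.90 ± 0.27. The planned limma fit between these controls has a single CX3CR1hi array. It called 0 of the 9 receptors (1, Tlr2, without resident control array 1) and 55.7% of all genes, a number that ran from 3321 to 17101 genes over the alternatives, and no difference or likeness is read from it. As far as the protocol numbers the samples in series order, RNA kit and sort label coincide, so label and kit cannot be told apart, and the pattern of shared values above also follows the label.

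The genes around the receptors were read from 8 further lists of pathway genes, with 54 of 60 genes measured. In Il10ra_mKO 45 were higher and 9 lower, with a median change of 0.19, where 48.5% of all genes and 55.7% of the bright ones were higher. Their call by limma was 0 of 54 over all genes tested. At an unadjusted p under 0.05, 9 were higher and 1 lower, where 4.06% and 3.86% of all genes were. That count of 10 was 5 without control array 2, 17 without Il10ra_mKO array 1 and 16 with quantiles equalised. In Il10_KO 51 of the 54 were higher and 3 lower, with a median of 0.22, where 56.3% of all genes and 60.8% of the bright ones were higher, and 0 reached 2-fold. The fit with the borrowed spread called 3 of the 54 (Ctsk, Ikbke and Socs1), against 7.9% of all genes, and with 1 array a group these calls are not read as changes. For Ctsk the 3 resident controls hold the same value.

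Among co-receptors Cd36, a fatty acid and lipoprotein receptor that assists Tlr2 with Tlr6, differed in the opposite direction from Tlr2. It was at 11.15, 10.86 and 10.67 in the resident controls and at 9.52 and 10.11 in Il10ra_mKO, with both mutant arrays below every control (-1.07 ± 0.25, adjusted p = 0.450). In the CX3CR1hi pair Cd36 was at 10.67 in the control and 10.94 in Il10_KO, and the difference of the effects was -1.33 (adjusted p = 0.311). Lbp, which carries lipopolysaccharide to the receptor complex, was dim, at 5.79 to 5.84 against 6.11 and 5.94 (0.21 ± 0.06, adjusted p = 0.5). Cd14 and Ly96, which present lipopolysaccharide to Tlr4, differed by 0.57 ± 0.33 (adjusted p = 0.678) and 0.07 ± 0.22 (adjusted p = 0.942). Cd180, a Tlr4-like receptor, was 0.73 ± 0.34 higher in Il10ra_mKO and 0.72 higher in Il10_KO, without passing. Of the 6 genes of this list 5 were higher in Il10ra_mKO (48.5% of all genes) and the median was 0.19. Cd14 and Ly96 were named outside the rule for named genes.

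Further lists hold genes that fold and move Toll-like receptors, not only endosomal ones, and genes that cut endosomal receptors. The trafficking list had a median of 0.12 in Il10ra_mKO, with 6 of 8 genes higher (48.5% of all genes) and 0 at an unadjusted p under 0.05. Unc93b1, the chaperone that takes nucleic acid receptors to endosomes, was at 11.89, 11.92 and 11.97 in the controls and at 11.97 and 12.32 in Il10ra_mKO (0.22 ± 0.12, adjusted p = 0.678). As for Tlr6, array 1 was level with the highest control and array 2 above it. Slc15a3, an endolysosomal peptide transporter, was 0.65 ± 0.30 higher and above the controls in both mutant arrays. The cleavage list had a median of -0.02, with the protease gene Ctss 0.45 ± 0.20 higher (adjusted p = 0.678) and Lgmn at -0.09 ± 0.07.

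All 6 adaptor genes were higher in Il10ra_mKO, where 48.5% of all genes and 55.7% of the bright ones were. Their median was 0.21, with 0 at an unadjusted p under 0.05. Sarm1, below the brightness cut, was higher by only 0.02, with both mutant arrays equal to the highest control value. For Ticam1 and Ticam2, Il10ra_mKO array 1 equalled the highest control. Tirap, which brings Myd88 to the surface receptors Tlr2 and Tlr4, was at 7.92, 8.23 and 8.23 against 8.52 and 8.44, above the controls in both arrays (0.35 ± 0.13, adjusted p = 0.632). Myd88, the adaptor of nearly all of these receptors, was at 10.25, 10.13 and 10.37 against 10.55 and 10.42 (0.23 ± 0.10, adjusted p = 0.678). Ticam2, which links Tlr4 to interferon induction, had the largest difference of the list in Il10_KO (0.62, not passing), and it was 0.24 ± 0.14 higher in Il10ra_mKO.

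Downstream of the adaptors the kinase list had 11 of 12 genes higher in Il10ra_mKO (48.5% of all genes), with a median of 0.26. At an unadjusted p under 0.05, 3 of them were higher, against 4.06% of all genes. Ikbke, a kinase that activates interferon regulatory factors, was at 8.71, 8.81 and 8.88 in the controls and at 10.18 and 10.06 in Il10ra_mKO, far apart (1.32 ± 0.08, adjusted p = 0.123). In Il10_KO it was 0.77 higher. Traf6, the ubiquitin ligase after Myd88, was at 8.34, 8.50 and 8.72 against 8.95 and 9.16 (0.54 ± 0.15, adjusted p = 0.507). Ikbkb, a kinase that frees NF-kB, was 0.41 ± 0.10 higher (adjusted p = 0.482).

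All 6 transcription factors were higher, where 48.5% of all genes and 55.7% of the bright ones were, with a median of 0.23. Irf7, which drives interferon genes after Tlr7 and Tlr9, was at 8.24, 8.10 and 8.53 against 9.21 and 9.55 (1.09 ± 0.19, adjusted p = 0.345). It was thus higher in Il10ra_mKO array 1, where Tlr7 was lowest, as well as in array 2. In Il10_KO it was 0.10 higher, and the difference of the effects did not pass (0.99, adjusted p = 0.309). Irf5, which acts with Myd88, was 0.49 ± 0.13 higher in Il10ra_mKO and 0.54 higher in Il10_KO.

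Of the 10 inhibitors of the pathway 8 were higher in Il10ra_mKO (48.5% of all genes), with a median of 0.37. At an unadjusted p under 0.05, 3 of them were higher, against 4.06% of all genes. Irak3, a kinase-like brake on Myd88 signalling, was at 8.63, 8.64 and 8.57 against 9.35 and 9.07 (0.60 ± 0.10, adjusted p = 0.343), and 0.64 higher in Il10_KO. Socs1, a feedback inhibitor of cytokine signalling, was at 4.86, 4.89 and 4.93 against 5.63 and 5.58 (0.71 ± 0.03, adjusted p = 0.0902), all below the brightness cut. In Il10_KO Socs1 was 0.98 higher. Tnip1, which restrains NF-kB, was 0.50 ± 0.14 higher in Il10ra_mKO. All 3 were named for a small p in this contrast, so their separation from the controls is no separate result. The same holds for genes of the other pathway lists named by that rule, such as Cd36, Tirap, Ikbke, Traf6 and Irf7. In the whole list 4 of the 10 had both mutant arrays above every control, against 8.92% of all genes.

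**Figure D4:**
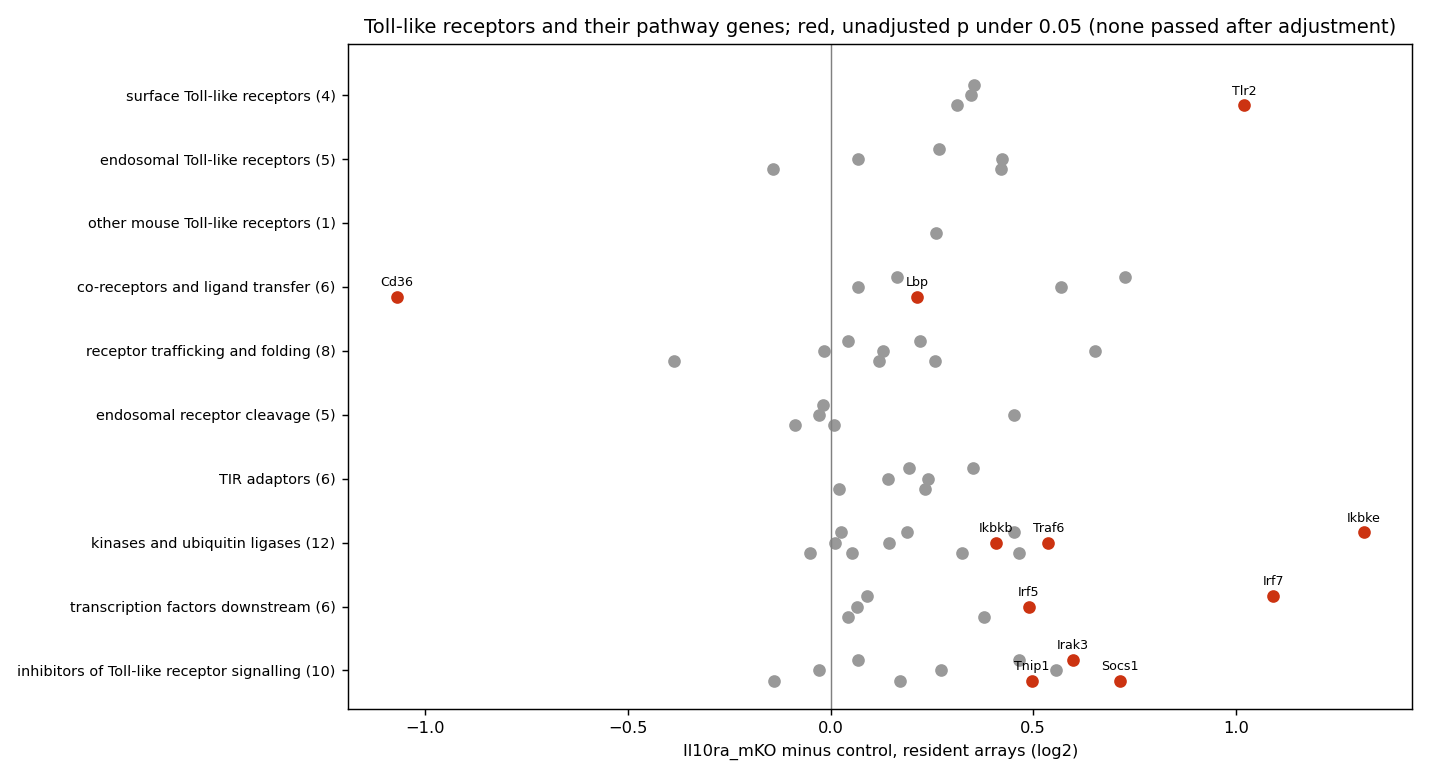
Log2 change in Il10ra_mKO against the resident controls (horizontal axis) of the 9 receptors and 54 pathway genes, 1 point a gene, in 10 lists with the number measured in brackets; red points have an unadjusted p under 0.05. Tlr2 is at 1.02, apart from the other surface receptors, and Cd36 at -1.07 is the red point on the lower side.

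Genes whose profile over the 7 arrays lay nearest to that of a receptor were sought for the surface and the endosomal receptor with the largest spread, Tlr2 and Tlr7. Likeness is the root mean square distance between log2 values centred on each gene's mean, over 7 arrays that share 2 sort labels. For Tlr2 the nearest genes were Trps1 (0.089), Nlrp1b (0.15) and Pot1b (0.15), and the nearest receptor was Tlr9 (0.33). For Tlr7 they were Klhl24 (0.13), Ch25h (0.13) and Ssh2 (0.15), and the nearest receptor was Tlr13 (0.28). Both receptors had other genes nearer to them than any other Toll-like receptor. The search covered far more genes than receptors, so this outcome was nearly fixed beforehand, and nothing about the family is read from it.

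Tlr12, another mouse Toll-like receptor outside the 10, also had its Il10ra_mKO arrays on either side of the controls. It was at 8.98, 9.0 and 9.40 in the controls and at 8.94 and 9.83 in Il10ra_mKO, with array 1 below and array 2 above all controls (0.26 ± 0.34, adjusted p = 0.788). In Il10_KO it was at 9.94 against 9.18.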

How the data were processed

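The deposited table holds 35399 rows of log2 expression values (3.55 to 14.8) for 7 arrays, and the submitters' processing notes name RMA, which corrects background, normalizes and summarises probe sets, and Partek. Versions, genome build and the set of arrays normalized in 1 run are unknown here. RMA pulls low values together, so changes of dim genes are understated. The probe table gives 21789 rows 1 symbol, 1621 several and 11989 none; the brightest row per symbol was kept (19938 genes). Of the 21789 rows 21698 matched the RefSeq gene table by gene ID, with 0 symbols changed.

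Group means of 4 groups (genotype and sort label) were fitted with limma 3.58.1 in R 4.3.3 (lmFit, eBayes with a variance trend, 3 residual degrees of freedom). P-values are two-sided and adjusted over all genes by Benjamini-Hochberg, with a threshold of 0.05. The Il10_KO pair borrows the spread of the resident arrays. The fit was tested on simulated data. Array numbers within a group follow accession order and pair nothing. The number of arrays limits the precision.

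The receptors and gene lists were chosen with earlier results of these data known. Named genes were the receptors, per pathway list the 2 genes with the smallest p in Il10ra_mKO and up to 5 under 0.05, the largest change in Il10_KO, the nearest profiles, the label checks Il10ra and Il10, and the highest marker per list.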

Additional observations from a re-analysis of the deposited data

How the results depend on the processing

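The fit was repeated with 15 alternatives, of which the restriction to genes whose resident arrays hold no shared value was chosen after seeing the data. The count of receptors past the threshold was 0 in every alternative that could be run for Il10ra_mKO, Il10_KO and the difference of both effects. Over all genes the count for Il10_KO was 2 with the brightness filter, 21 with quantile normalization and up to 2788 on leaving out an array. That for Il10ra_mKO ranged from 0 to 421, highest with array medians aligned, and was 209 among genes with no shared value, where Tlr2 had adjusted p = 0.0826. Between the control arrays of the 2 sort labels the count of receptors was 1 without control array 1 and otherwise 0, so leaving out an array gave 0 to 1.

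Leaving out 1 array moved the Il10ra_mKO medians to 0.18 to 0.55 for surface and 0.0475 to 0.47 for endosomal receptors, and the pathway count of 10 to between 5 and 17; quantile normalization gave 16. Tlr2 ranged from 0.85 (without control array 2) to 1.21 (without control array 1). No receptor had passed in the main fit of any comparison. Signs turned for some receptors over the alternatives. In Il10ra_mKO these were Tlr7 (-0.76 to 0.47 on leaving out an array) and Tlr13 (-0.18 to 0.32, and -0.014 with runs of sample numbers as a block). In Il10_KO Tlr7 was -0.037 with quantile normalization and -0.012 with array medians aligned. In the difference of the effects they were Tlr4 (-0.23 to 0.23, and -0.045 with runs as a block), Tlr6 (-0.091 to 0.32), Tlr7 (-0.78 to 0.45), Tlr8 (-0.23 to 0.52), Tlr9 (-0.14 to 0.41) and Tlr13 (-0.44 to 0.051). Between sort labels quantile normalization gave -0.37 for Tlr6, -0.27 for Tlr8 and -0.18 for Tlr13, and leaving out an array gave -0.12 to 0.15 for Tlr8 and -0.044 to 0.24 for Tlr13. The cause was not tested. No paired analysis was possible because the labels give no replicate numbers shared between groups, and the block above uses runs of sample numbers, which the labels do not call batches. The runs block was not run between sort labels, nor leaving out a CX3CR1hi array, which removes its comparison, nor a set without Tlr5, which has no row.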

Other observations

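The Il10 transcript was at 9.76, 9.83 and 10.86 in the resident controls and at 10.21 and 10.43 in Il10ra_mKO, and at 11.04 in the CX3CR1hi control and 10.75 in Il10_KO. Its probes were not placed against the Il10 deletion, so this level is no check of the label.

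Csf3r, the G-CSF receptor and the brightest of the neutrophil markers, was at 8.98, 8.33 and 8.92 in the resident controls and at 9.60 and 10.02 in Il10ra_mKO, and at 9.24 and 9.95 in the CX3CR1hi control and Il10_KO, above control in both pairs as Tlr2 was. It did not pass (1.07 ± 0.28 SE, limma, adjusted p = 0.486), and macrophages use this gene too. Of the other marker lists, fibroblast and muscle genes, 10 measured, averaged 7.06 to 7.55 in the resident controls and 6.65 and 6.55 in Il10ra_mKO, led in level by Dcn, a collagen-binding proteoglycan (10.63 to 11.39 against 9.26 and 9.68). T cell and ILC markers averaged 5.99 to 6.22 against 6.19 and 6.30, mast cell and basophil markers 4.94 to 5.05 against 5.12 and 5.0, and endothelial and glial markers 5.57 to 5.73 against 5.66 and 5.63. The highest members of the remaining lists were C1qb for macrophages (13.16 to 13.22 against 13.22 and 13.36), Itga4 for monocytes (10.46 to 10.74 against 10.62 and 11.33), Dpp4 for conventional dendritic cells (8.53 to 8.75 against 8.24 and 8.39), Tcf4 for plasmacytoid dendritic cells (9.23 to 9.39 against 8.84 and 9.23) and Jchain for B and plasma cells (11.55 to 11.60 against 11.36 and 11.46). They were Cd4 for T cells and ILC (10.38 to 10.88 against 10.36 and 10.87), Ms4a2 for mast cells and basophils (5.40 to 5.63 against 5.59 and 5.54) and Pecam1 for endothelium (7.17 to 8.02 against 7.92 and 8.36).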
